A study of Mus musculus with 16 samples.

Results

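The 33 genes described here encode proteins of the cardiac sarcomere, its Z-disc and the structures tied to it. They were listed by name, with the myosin heavy chains left out, and matched by gene symbol to the arrays of 16 mouse hearts, where they are 33 of 20056 genes tested. Each gene is represented by its brightest probe, and all 33 were tested and read above background on all 16 arrays. By place in the sarcomere, 7 belong to the thin filament, 3 to the thick filament, 3 to titin and the M-band, 12 to the Z-disc, 6 to desmin, the costamere and its chaperones, and 2 are muscle ubiquitin ligases.

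The study compared hearts with and without the mineralocorticoid receptor gene Nr3c2 in cardiomyocytes. The cardioMRKO mice carry a floxed Nr3c2 allele together with an αMHC-Cre transgene, whose promoter drives expression in cardiomyocytes. Controls, called flox here, were Cre-negative littermates with the floxed allele. All mice were male and of C57BL/6 background, and whole hearts were taken at an age of 1 or 2 months. Each of the 4 groups had 4 mice, each on 1 single-colour Agilent array. The controls lack Cre, so the presence of Cre and the loss of the receptor cannot be told apart. In whole-heart RNA, fewer cells of a type and less RNA per cell cannot be told apart either.

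The sarcomere is the contractile unit of muscle. Myosin thick filaments pull on actin thin filaments when calcium binds troponin, titin spans from the Z-disc to the M-band and carries passive tension, and the Z-disc crosslinks the thin filaments of neighbouring sarcomeres. Desmin filaments, costamere proteins and small heat shock proteins hold Z-discs together and tie them to the cell membrane, and ubiquitin ligases tag sarcomere proteins for degradation.

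Levels are log2 signals above (or, if negative, below) the 75th percentile of all signals on an array, and differences are log2 values from a limma fit over all 16 arrays, with the standard error (SE) and 4 arrays per group. Genes count as called where the Benjamini-Hochberg adjusted p, taken over the 20056 genes, was under 0.05. The 75th percentile of the signal was 527 to 1091 intensity units, arrays of the same group correlated at 0.953 to 0.996, and the number of arrays limits the precision. The median member had an SD within groups of 0.20, beside 0.24 for the median gene. The 4 arrays of a group shared 1 slide, and in every comparison below the slide and the group cannot be told apart. The 10 cardiomyocyte markers outside the sarcomere were above background on all 16 arrays.

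The targeted gene was measured first. Nr3c2 stood at −4.22, −4.29, −4.56 and −4.76 in flox and −4.58, −4.79, −4.53 and −4.63 in cardioMRKO at 1 month, where the groups overlapped and differed by −0.17 (two-sided exact permutation p = 0.257). At the later age Nr3c2 stood at −3.72, −3.89, −3.76 and −3.44 in flox and −3.90, −4.05, −4.44 and −4.13 in cardioMRKO. All 4 cardioMRKO values then lay below all 4 of flox, with a difference of −0.43 (exact permutation p = 0.0286, which is the lowest this design can give). Nr3c2 was dim, and at 1 month it lay below the median signal of each array. Whole hearts also hold cells other than cardiomyocytes, and their Nr3c2 is included in these levels. The extent of the loss within cardiomyocytes was therefore not tested at either age.

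**Figure D1:**
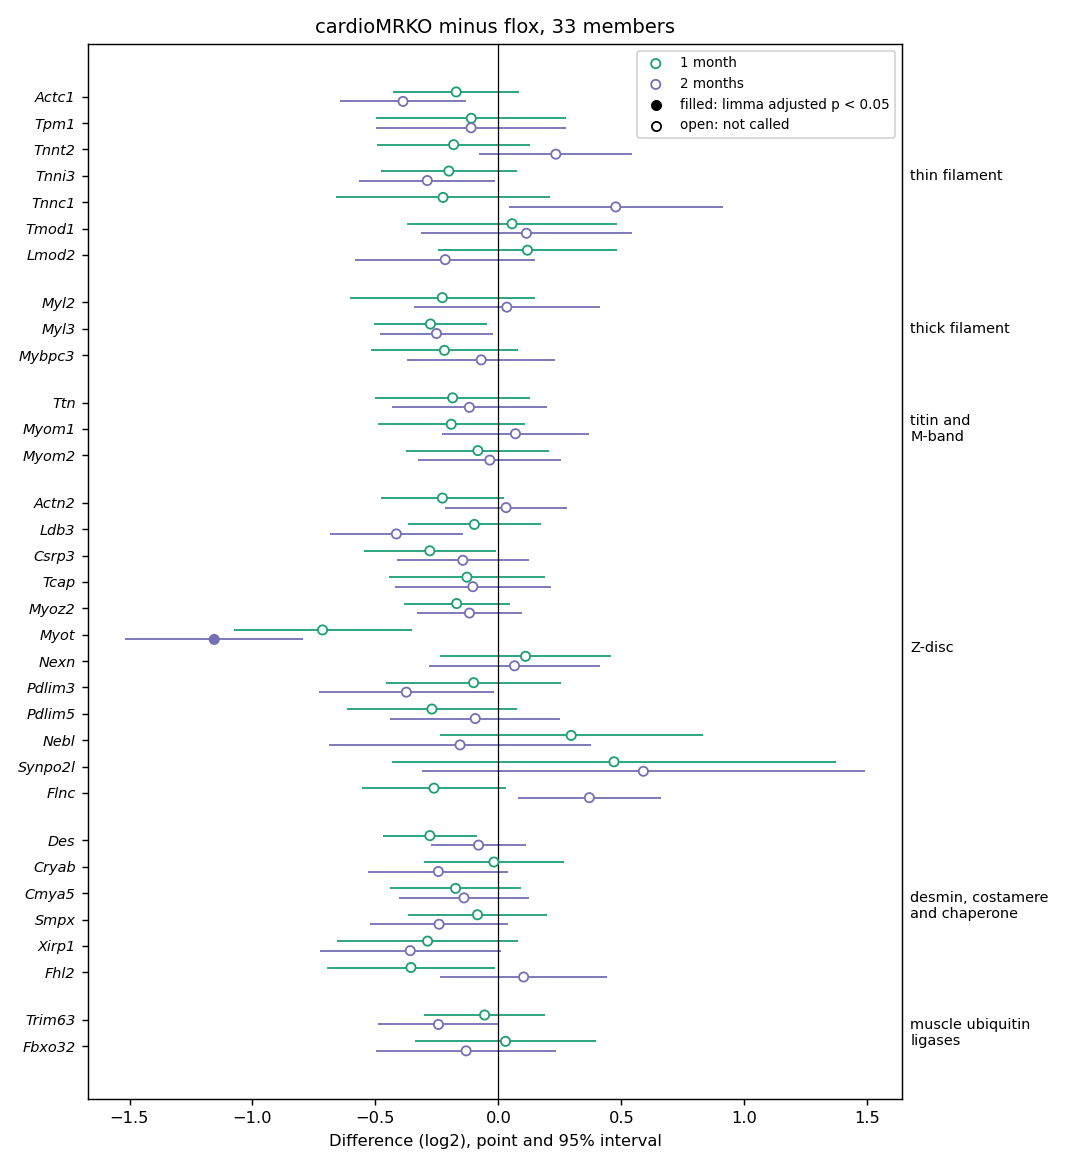
Difference between cardioMRKO and flox (log2, x axis) for each of the 33 members, grouped by place in the sarcomere, at 1 month (green) and 2 months (purple). Lines are 95% intervals of the limma fit with 4 arrays per group, and a filled point marks an adjusted p under 0.05. Myot at 2 months, at −1.16, is the only filled point, and 27 points lie below 0 at 1 month and 23 at 2 months.

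Between genotypes, 1 of the 33 genes was called. Myot, the gene of the Z-disc protein myotilin, which binds α-actinin and filamin and crosslinks actin, fell in cardioMRKO hearts at 2 months by 1.16 (2.23-fold). At 1 month limma called no member and 0.0947% of all genes, and 5 members had an unadjusted p under 0.05, all with a lower value, beside 2.28% of all genes. At 2 months 3.53% of all genes were called, and 1.98% of all genes were called lower. A count of 1 in 33 at that age lies near this background and says nothing particular of the members. Over the mean of both ages Myot was again the only member called, beside 1.14% of all genes in either direction and 0.558% in the lower, and 8 members had an unadjusted p under 0.05 with a lower value, beside 8.83% of all genes.

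Myot stood at 0.75, 0.57, 0.96 and 0.98 in the flox hearts at 1 month and at 0.03, 0.20, −0.04 and 0.23 in the cardioMRKO hearts of that age. At 2 months the flox values were 2.46, 1.87, 1.79 and 1.91 and the cardioMRKO values 1.00, 0.76, 0.49 and 1.16. At both ages every cardioMRKO array lay below every flox array, so the groups did not overlap. The difference was −0.72 at 1 month (SE 0.169, limma adjusted p = 0.286), which did not pass, and −1.16 at 2 months (SE 0.169, adjusted p = 0.00231). The mean of both ages was −0.94 (SE 0.119, adjusted p = 0.00135), a 1.91-fold lower level. The 2-month difference exceeded the 1-month difference by −0.44 (adjusted p = 0.527), so a change of the genotype difference with age was not shown.

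Group means of Myot, in order, were 0.10 in cardioMRKO at 1 month, 0.82 in flox at 1 month, 0.85 in cardioMRKO at 2 months and 2.01 in flox at 2 months. The middle pair of groups overlapped, with 0.57 to 0.98 in flox at 1 month and 0.49 to 1.16 in cardioMRKO at 2 months. With array weights the 1-month difference was −0.74 and passed (adjusted p = 0.0198). The 2-month call was lost with scaling on the spike-in controls (−0.97, adjusted p = 0.082) and in a fit of the 8 arrays of that age alone (adjusted p = 0.068). The call over both ages was lost with spike-in scaling (−0.85, adjusted p = 0.0865).

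Myotilin is also a protein of skeletal muscle, and markers of skeletal muscle were high on 2 arrays. The mean level of the 10 skeletal muscle markers tested was 1.76 in flox replicate 3 and 1.24 in cardioMRKO replicate 4 at 2 months, and −1.47 to −0.71 on the other 14 arrays. On both of these arrays 5 of the 10 markers lay above all 14 others, Mylpf, Tnnt3, Tnni2, Actn3 and Ryr1, and the other 5, Acta1, Myh1, Myh2, Myh4 and Atp2a1, did not. Tnnt3, a fast skeletal troponin T, was at 2.54 and 1.79 on these arrays and at −5.47 to −2.48 on the others. Actn3, a fast-fibre α-actinin, was at 0.74 and −0.35 there and at −5.39 to −4.05 elsewhere. Myot was lowest of its group on the first of these arrays, at 1.79, and highest of its group on the second, at 1.16. Without both arrays, left out after seeing the data, the 2-month difference was −1.33 (adjusted p = 0.00537). Leaving out the lowest flox and the highest cardioMRKO value could only widen it. The part of skeletal muscle signal in the Myot difference was therefore not tested.

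**Figure D2:**
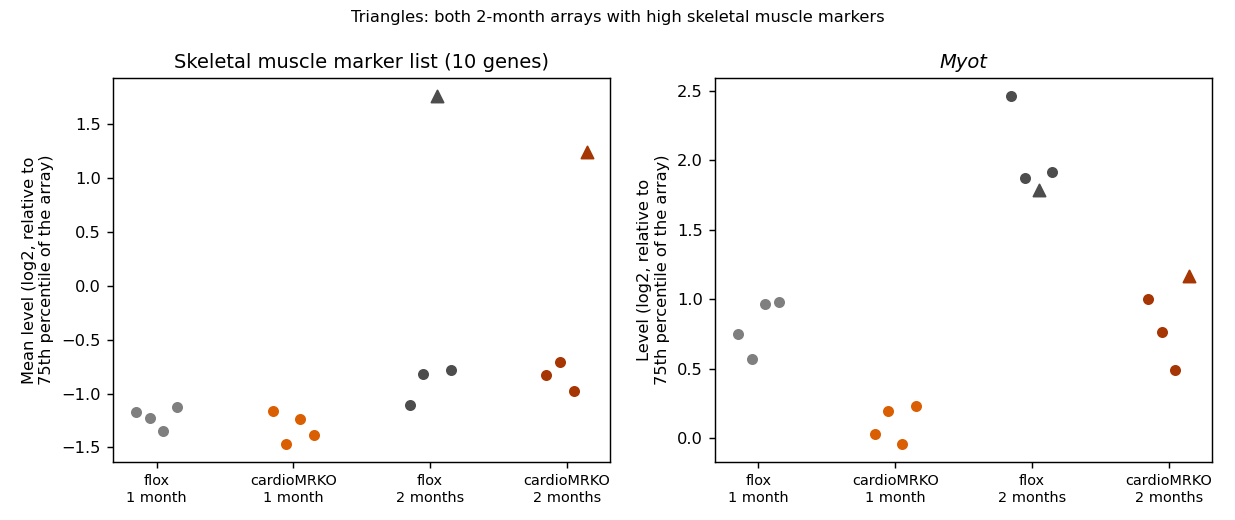
Mean level of 10 skeletal muscle markers (left) and level of Myot (right) on each of the 16 arrays, as log2 signal relative to each array's 75th percentile. Triangles mark the 2 arrays at 2 months with high skeletal muscle markers, at 1.76 and 1.24. On the right the cardioMRKO points lie below the flox points of the same age, and the triangles are the lowest point of flox and the highest of cardioMRKO at 2 months.

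In the thin filament none of 7 genes was called between genotypes at either age. Their median difference was −0.17 at 1 month and −0.11 at 2 months. Actc1, the cardiac α-actin that forms the filament, stood at 7.95, 7.86, 7.90 and 7.75 in flox and 7.72, 7.66, 7.75 and 7.64 in cardioMRKO at 1 month. At 2 months Actc1 stood at 8.01, 7.98, 7.95 and 8.05 in flox and 7.86, 7.87, 7.36 and 7.34 in cardioMRKO. At both ages all cardioMRKO values of Actc1 lay below those of flox, and replicates 3 and 4 of cardioMRKO at 2 months stood apart from replicates 1 and 2. The margin at 1 month was narrow, with the highest cardioMRKO value at 7.7484 and the lowest flox value at 7.7491. The difference was −0.17 at 1 month (adjusted p = 0.953) and −0.39 at 2 months (SE 0.119, adjusted p = 0.0878). Without cardioMRKO replicate 1 the 2-month value was −0.47 and passed (adjusted p = 0.0426).

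Tnnc1, the calcium-binding troponin C of heart and slow muscle, was lower in cardioMRKO at 1 month and higher at 2 months in the group means. Its values at 2 months were 6.15, 6.29, 6.01 and 5.26 in flox and 6.53, 6.79, 5.98 and 6.31 in cardioMRKO, where the groups overlapped and flox replicate 4 was far below the rest. The difference was −0.23 at 1 month and 0.48 at 2 months (adjusted p = 0.221), and the change between ages was 0.70 (SE 0.288, adjusted p = 0.359). Tnnt2, the troponin T that holds the troponin complex on tropomyosin, differed by −0.18 and 0.23, and over both ages by 0.03 (95% interval −0.19 to 0.25), with the p nearest 1 among the members. Leaving out single arrays turned that mean to −0.05 at the lowest. The inhibitory subunit Tnni3 differed by −0.20 and −0.29, tropomyosin Tpm1 by −0.11 at both ages, the pointed-end cap tropomodulin Tmod1 by 0.06 and 0.11, and leiomodin Lmod2, which nucleates and lengthens actin filaments, by 0.12 and −0.22.

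In the thick filament the 3 genes stood lower in cardioMRKO at 1 month, with none called. Myl3, the ventricular essential myosin light chain, stood at 8.45, 8.59, 8.59 and 8.50 in flox and 8.13, 8.18, 8.33 and 8.38 in cardioMRKO at 1 month, without overlap. At 2 months it stood at 8.65, 8.35, 8.54 and 8.51 in flox and 8.31, 8.50, 8.03 and 8.22 in cardioMRKO, with overlap. The difference of Myl3 was −0.28 at 1 month (SE 0.107, adjusted p = 0.734), −0.25 at 2 months (adjusted p = 0.218) and −0.26 over both ages (SE 0.0754, adjusted p = 0.121). The regulatory light chain Myl2 differed by −0.23 at 1 month and by 0.03 at 2 months (95% interval −0.34 to 0.41), the member with the p nearest 1 at that age. Mybpc3, the cardiac myosin-binding protein C that sets crossbridge cycling, differed by −0.22 and −0.07.

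Titin and both M-band genes, whose myomesins crosslink myosin in the middle of the sarcomere, were not called. Ttn differed by −0.19 and −0.12, Myom1 by −0.19 and 0.07, and Myom2 by −0.08 and −0.04 at 1 and 2 months. Ttn is the member with the most probes, 8, and these read differently on 2 arrays. In flox replicate 4 at 2 months the 7 probes other than the brightest lay below all 14 remaining arrays, by 0.84 to 4.78 under their median, while the brightest probe lay above all 14 arrays, 0.79 over their median. In cardioMRKO replicate 3 at 2 months 6 of those 7 probes lay below all 14 arrays, and the brightest probe again above all 14, 0.36 over their median. These are also the 2 arrays with the lowest spike-in controls after scaling, −0.82 and −0.51 against −0.30 or more elsewhere. The 2-month genotype difference of the 7 other probes ranged from 0.03 to 1.06 with all arrays and from −0.03 to 0.54 without these arrays, and that of the brightest probe was −0.12 and −0.02. The place of each probe in the long titin transcript was not examined, and the part of RNA quality in these values was not tested.

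Of the 12 Z-disc genes, Myot was the only one called between genotypes. The next smallest p at 2 months was that of Ldb3, the gene of cypher or ZASP, a PDZ and LIM protein that binds α-actinin. Ldb3 stood at 4.80, 4.57, 4.46 and 4.90 in flox and 4.52, 4.38, 4.23 and 3.94 in cardioMRKO at 2 months, and the groups overlapped by 1 value. The difference was −0.42 (SE 0.126, adjusted p = 0.0855), and without cardioMRKO replicate 1 it was −0.50 and passed (adjusted p = 0.0447). At 1 month Ldb3 differed by −0.10. The 3 probes of Ldb3 gave −0.42, −0.43 and 0.22 at 2 months, and the third read −0.08 without flox replicate 4.

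Flnc, filamin C, which links actin to the Z-disc and the membrane and binds myotilin, was the only member higher in cardioMRKO without overlap. It stood at 3.33, 3.33, 3.26 and 3.38 in flox and 3.78, 3.86, 3.75 and 3.38 in cardioMRKO at 2 months, where replicate 4 of cardioMRKO sat just above the flox values. The difference was 0.37 at 2 months (SE 0.136, adjusted p = 0.156) after −0.26 at 1 month, and all 3 probes of Flnc were above 0 at 2 months, from 0.36 to 0.55. The change between ages, 0.63 (SE 0.192, adjusted p = 0.172), had the smallest p of the members. Weighting the arrays by their quality gave 0.77, which passed (adjusted p = 0.0369).

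The remaining 9 Z-disc genes gave no call. Actn2, the α-actinin that crosslinks actin at the Z-disc, differed by −0.23 and 0.03. Csrp3, the LIM protein MLP, differed by −0.28 without overlap at 1 month (adjusted p = 0.805) and by −0.14 at 2 months. The titin cap Tcap differed by −0.13 and −0.10, calsarcin Myoz2, a calcineurin-binding protein, by −0.17 and −0.12, and the actin-binding nexilin Nexn by 0.11 and 0.07. The PDZ and LIM genes differed by −0.10 and −0.37 (Pdlim3) and by −0.27 and −0.09 (Pdlim5). Nebl, nebulette, differed by 0.30 and −0.16. Synpo2l, an actin-associated synaptopodin family member, differed by 0.47 and 0.59, with the widest spread of the members (SD within groups 0.64). Its array values ran from −3.02 in flox replicate 1 at 1 month to 0.25 in cardioMRKO replicate 3 at 2 months, and the other 14 lay between −1.85 and −0.92.

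Promoter sequence is shown for Ldb3 and Lmod2, which were called with age, and for Actc1 and Myl3. Actc1 and Myl3 stood lower in cardioMRKO in the group means at both ages, as did many other members. Myot, Cryab and Xirp1, the other members called with age, had no promoter entry. The sequences are examples, and the share of member promoters with each motif is given after them. Sequences are from RefSeq on build GRCm38.p6, the 250 bases before the annotated start, read 5′ to 3′ on the gene's strand. Capitals mark the corticosteroid receptor half-site TGTTCT and the CArG box, the site of serum response factor. The MEF2 motif and the GATA motif AGATAA were also searched and had no match here, nor had any of the 4 motifs in the Lmod2 window. All were searched on both strands.
Ldb3, chr14:34588682-34588931, minus strand: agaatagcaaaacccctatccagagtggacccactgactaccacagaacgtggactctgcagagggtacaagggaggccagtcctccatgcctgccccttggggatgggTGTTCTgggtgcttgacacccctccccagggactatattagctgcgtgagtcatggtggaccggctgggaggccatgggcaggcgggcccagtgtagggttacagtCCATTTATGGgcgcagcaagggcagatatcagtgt
Actc1, chr2:114052876-114053125, minus strand: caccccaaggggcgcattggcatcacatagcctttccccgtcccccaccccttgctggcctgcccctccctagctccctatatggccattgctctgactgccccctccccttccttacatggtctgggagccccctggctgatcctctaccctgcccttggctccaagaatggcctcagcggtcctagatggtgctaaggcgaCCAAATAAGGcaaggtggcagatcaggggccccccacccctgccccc
Myl3, chr9:110763428-110763677, plus strand: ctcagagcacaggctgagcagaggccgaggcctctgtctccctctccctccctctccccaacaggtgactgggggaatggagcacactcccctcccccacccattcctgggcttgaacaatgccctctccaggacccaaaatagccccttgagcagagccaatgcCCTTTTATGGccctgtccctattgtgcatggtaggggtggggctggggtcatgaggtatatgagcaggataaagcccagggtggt
Lmod2, chr6:24597521-24597770, plus strand: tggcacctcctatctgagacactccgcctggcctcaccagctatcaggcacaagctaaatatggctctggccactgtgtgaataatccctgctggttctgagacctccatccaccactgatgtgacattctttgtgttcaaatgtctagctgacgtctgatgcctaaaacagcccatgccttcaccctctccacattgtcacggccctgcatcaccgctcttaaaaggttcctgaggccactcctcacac

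Of the 33 members, 26 had at least 1 promoter entry and 9 of these more than 1. In windows of 300 bases, 250 before and 50 after the start, the CArG box was found in 8 of 37 member promoters (21.6%) and in 1.63% of all 32851 promoters. It was present in Actc1, Fhl2, Ldb3, Myl3, Myom1 and Nebl. The MEF2 motif was found in 16.2% of member promoters and 3.19% of all, and AGATAA in 21.6% and 11.2%. The half-site TGTTCT, which both the mineralocorticoid and the glucocorticoid receptor bind, was found in 21.6% of member promoters and 19.0% of all, among them Csrp3, Ldb3, Mybpc3, Synpo2l, Tmod1, Tnnt2 and Trim63. No matches of different motifs overlapped in the members. Several entries of 1 gene can share bases, as the 2 of Ldb3 do, and a match describes the letters only.

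Of the 6 genes of desmin, the costamere and its chaperones, all lay below 0 at 1 month and 5 at 2 months, with none called. Des, the intermediate filament desmin that links Z-discs, had the smallest spread of all members (SD within groups 0.10). It stood at 4.88, 4.94, 4.92 and 4.91 in flox and 4.56, 4.68, 4.67 and 4.61 in cardioMRKO at 1 month, without overlap. At 2 months the groups overlapped, with 4.88, 4.92, 4.77 and 4.69 in flox and 4.67, 4.78, 4.93 and 4.54 in cardioMRKO. The difference of Des was −0.28 at 1 month (SE 0.0897, adjusted p = 0.555) and −0.08 at 2 months. With array weights the 1-month value was −0.28 and passed (adjusted p = 0.0408). Over both ages it was −0.18 (adjusted p = 0.214), and it passed with weighted arrays (−0.21, adjusted p = 0.0221) and when both arrays of low spike-in signal were left out (−0.23, adjusted p = 0.0421).

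Fhl2, a LIM protein that docks enzymes on titin, stood at 7.82, 7.91, 8.04 and 7.83 in flox and 7.30, 7.83, 7.56 and 7.47 in cardioMRKO at 1 month. The groups overlapped at 1 value, and the difference was −0.36 (SE 0.159, adjusted p = 0.803), with 0.10 at 2 months and a change between ages of 0.46 (adjusted p = 0.472). Cryab, the small heat shock protein αB-crystallin that binds desmin and titin, differed at 1 month by −0.02 (95% interval −0.30 to 0.27), the p nearest 1 among the members, a value that changed sign with quantile normalization (0.11) and with normexp background correction (0.05). At 2 months it differed by −0.24. The costamere proteins Xirp1 and Cmya5 differed by −0.29 and −0.36, and by −0.17 and −0.14. Smpx, a small muscle protein of the costamere, differed by −0.09 and −0.24.

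The muscle ubiquitin ligase genes, which rise in muscle wasting, were not called. Trim63, MuRF1, differed by −0.06 at 1 month and −0.24 at 2 months, and Fbxo32, atrogin-1, by 0.03 and −0.13.

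The group means of the members lay mostly below those of flox, by amounts that depended on the scaling. At 1 month 27 of 33 differences lay below 0, beside 45.7% of all genes, with a median of −0.17 beside 0.02. At 2 months 23 lay below 0, beside 62% of all genes, with a median of −0.12 beside −0.08, and over both ages 26, beside 55.8%, with a median of −0.13 beside −0.02. After quantile normalization 17, 13 and 14 of the 33 lay below 0, with medians of −0.0017, 0.06 and 0.01. With spike-in scaling, which moved the median of all genes at 2 months to 0.10, the counts were 27, 11 and 22. At 2 months fewer members lay below 0 than above with both of these scalings, and over both ages with quantile normalization only, while at 1 month the count fell from 27 to 17 with quantile normalization.

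Genes with bright probes lay mostly below 0 as well. Of the members, 22 were among the brightest 5% of genes tested, by probe signal. The 981 other genes in that class lay below 0 for 73.5% at 1 month, with a median of −0.08, and for 82.6% at 2 months, with a median of −0.17. The 22 members lay below 0 for 21 genes at 1 month, with a median of −0.18, and for 15 at 2 months, with a median of −0.11. Of the 10 cardiomyocyte markers outside the sarcomere 9 lay below 0 at 1 month and 7 at 2 months, with medians of −0.15 and −0.04, and of the 6 fibroblast markers 1 and 3, with medians of 0.08 and 0.02. Markers of other cell types also lay below 0 in part, 4 of 6 for endothelium, 3 of 3 for red cells and 4 of 4 for adipocytes at both ages, 4 of 5 for lymphocytes and 2 of 5 for macrophages at 1 month, and 3 of 5 and 5 of 5 for these at 2 months. Smooth muscle markers lay below 0 for 2 of 4 and 1 of 4, atrial markers for 4 of 5 at both ages, and airway markers for 1 of 6 and 6 of 6. Skeletal muscle markers lay below 0 for 8 of 10 and 6 of 10. Of these 10, 1 was called higher at 2 months (limma adjusted p = 0.00508), beside 1.55% of all genes. For the change between ages 1 was called higher (limma adjusted p = 0.02), beside 0.509% of all genes. The part of probe brightness and of cell composition in the member values was not tested.

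At 1 month 9 members had all 4 cardioMRKO arrays below all 4 of flox, beside 3.68% of all genes, and none had them above, beside 3.95%. They were Actc1 and Tnnc1 of the thin filament, Myl3, Myom1, Csrp3, Myot and Pdlim5 of the thick filament, M-band and Z-disc, and Des and Cmya5. Actc1 separated only by the narrow margin given above. Of the 5 probes of Pdlim5, 2 lay below 0 at 1 month, over a range of −0.27 to 0.11. At 2 months 2 members, Actc1 and Myot, were lower without overlap, beside 7.28% of all genes, and Flnc was higher, beside 2.87%. An unadjusted p under 0.05 with a lower value was found for 5 members at 1 month, beside 2.28% of all genes, and for 6 at 2 months, beside 13.9%. With a higher value it was found for 0 members at 1 month, beside 3.73%, and for 2 at 2 months, beside 4.92%.

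**Figure D3:**
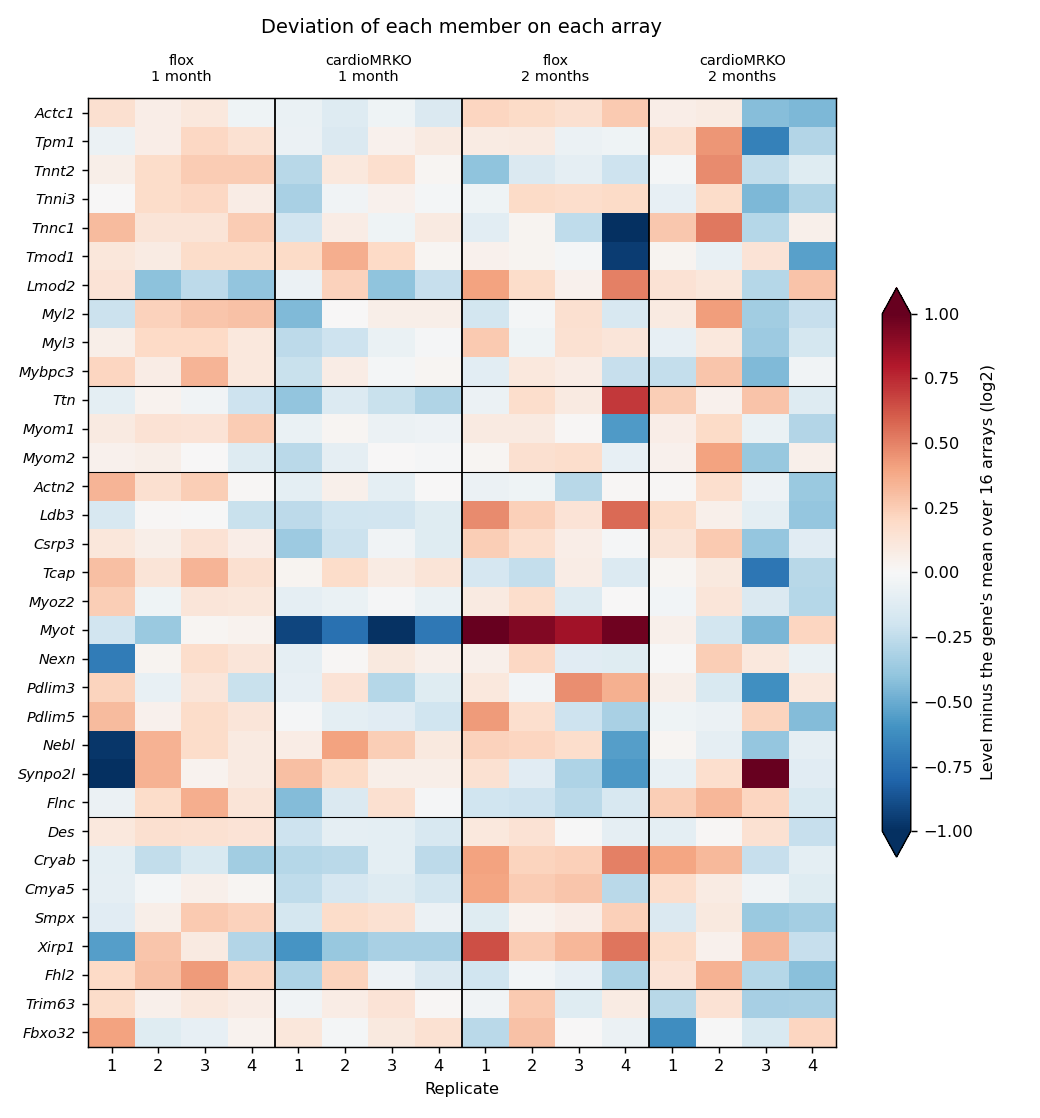
Level of each of the 33 members on each of the 16 arrays minus the mean of the gene over all arrays (log2, colour scale ending at −1 and 1), ordered by place in the sarcomere with lines between the places. The Myot line is blue in cardioMRKO at 1 month and red in flox at 2 months. Replicates 3 and 4 of cardioMRKO at 2 months are blue for most members.

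Arrays of a group were not alike. The median deviation of the members from their means over all arrays was −0.28 and −0.17 in cardioMRKO replicates 3 and 4 at 2 months, and 0.04 and 0.12 in replicates 1 and 2. The members varied more in that group than elsewhere, with a median SD of 0.27 against 0.11, 0.12 and 0.16 in flox and cardioMRKO at 1 month and flox at 2 months. Without cardioMRKO replicate 2 the 2-month count below 0 was 27, and without replicate 3 it was 19. At 1 month cardioMRKO replicate 1 had the lowest median, −0.19, against −0.04 to −0.02 in the other replicates, and without it 27 members still lay below 0.

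The change of the genotype difference between the ages was not called for any member, beside 0.748% of all genes, and 19 members lay above 0, beside 37% of all genes. By limma 2 members had an unadjusted p under 0.05, Flnc and Tnnc1, both with a higher value, beside 3.05% of all genes. The member median was 0.03 beside −0.10 for all genes. Both genotype comparisons used different arrays.

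From 1 to 2 months in the flox hearts, 5 members rose and none fell by the test. They were Myot, Cryab, Ldb3, Xirp1 and Lmod2, beside 22.7% of all genes called in either direction. Of all genes, 16.7% were called higher and 5.91% lower. A count of 5 in 33 lies near that background and says nothing particular of the members. The count was 2 without flox replicate 4 at 1 month or flox replicate 1 at 2 months, 3 without flox replicate 4 at 2 months, and 8 without cardioMRKO replicate 3 at 2 months, an array that enters only the estimate of the spread. The number of all genes called moved too, from 2743 to 6166 over all alternative settings. In cardioMRKO hearts only Myot rose, beside 10.2% of all genes called and 5.32% called higher. The count there was 2 without flox replicate 4 or cardioMRKO replicate 2 or 3 at 2 months. Over all alternative settings the number of all genes called in cardioMRKO ran from 1077 to 5179. The flox arrays at 2 months enter both the age comparison and the genotype comparison of that age.

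Markers of other tissues moved with age on the same arrays. In flox 5 of 6 airway markers were called higher (median 7.14), 4 of 6 fibroblast markers lower (median −0.55), and 2 of 5 lymphocyte markers (median 0.89) and 1 of 4 adipocyte markers (median 1.24) higher. In cardioMRKO none of the airway markers was called (median 3.24), 4 of 6 fibroblast markers were called lower (median −0.60), and 2 of 5 lymphocyte (median 1.37) and 1 of 4 adipocyte markers (median 1.35) higher. Of the 10 skeletal muscle markers 2 were called higher in each genotype, and 1 lower in flox. Of all genes, 4.93% were called lower in cardioMRKO, and the other shares are given above. The mean level of the airway markers ran from −6.16 to 2.93 in flox and −5.88 to 2.05 in cardioMRKO at 1 month, and from 2.25 to 5.47 and 0.19 to 2.94 at 2 months. At 1 month it was highest on flox replicate 4 and cardioMRKO replicate 1, and all arrays at 2 months lay above 0. The part of other tissues in the age differences of the members was not tested.

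Myot rose in flox by 1.19 (SE 0.169, 2.28-fold, adjusted p = 0.000398) and in cardioMRKO by 0.75 (SE 0.169, 1.68-fold, adjusted p = 0.0123), in each genotype without overlap. Both calls were kept in all 28 alternative settings, with adjusted p of 9.32e-05 to 0.00497 in flox and 0.00167 to 0.0401 in cardioMRKO. Without both arrays of high skeletal muscle signal the rise was 1.27 in flox and 0.65 in cardioMRKO. These arrays hold the lowest flox and the highest cardioMRKO value of Myot at 2 months. Leaving them out could therefore only raise the first value and lower the second.

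Cryab stood at 6.53, 6.38, 6.48 and 6.29 in flox at 1 month and at 7.04, 6.85, 6.87 and 7.14 at 2 months, without overlap. The rise was 0.55 (SE 0.133, 1.47-fold, adjusted p = 0.00806). In cardioMRKO it stood at 6.35, 6.36, 6.53 and 6.37 at 1 month and at 7.03, 6.95, 6.40 and 6.54 at 2 months, where the groups overlapped, and replicates 1 and 2 were as high as flox while replicates 3 and 4 were not. That difference was 0.33 (SE 0.133, adjusted p = 0.138). It passed without replicate 3 (0.44, adjusted p = 0.0328), with weighted arrays (0.48, adjusted p = 0.00282) and with quantile normalization (0.32, adjusted p = 0.0425). The second probe of Cryab read −0.11 in flox and −0.26 in cardioMRKO, and the flox call was lost with the mean of its probes (0.22, adjusted p = 0.26) and with spike-in scaling (0.73, adjusted p = 0.0778).

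Ldb3 rose in flox from 4.17, 4.34, 4.32 and 4.11 at 1 month to the 2-month values given above, without overlap. The rise was 0.45 (SE 0.126, adjusted p = 0.0195), and in cardioMRKO it was 0.13 (adjusted p = 0.585). It was lost without flox replicate 4 at 1 month (0.41, adjusted p = 0.0599), replicate 1 at 2 months (0.41, adjusted p = 0.0539) or replicate 4 at 2 months (0.38, adjusted p = 0.0538). The mean of its probes gave 0.16 (adjusted p = 0.417).

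Xirp1, an actin-binding protein of the intercalated disc and costamere, stood at 1.92, 2.75, 2.56 and 2.18 in flox at 1 month and 3.11, 2.72, 2.80 and 3.0 at 2 months, with overlap. The rise was 0.56 (SE 0.172, adjusted p = 0.0303). In cardioMRKO it went from 1.88, 2.09, 2.15 and 2.15 to 2.65, 2.51, 2.81 and 2.24, without overlap, a difference of 0.49 (SE 0.172, adjusted p = 0.0889) that passed with weighted arrays (0.45, adjusted p = 0.0325). Lmod2 stood at 2.93, 2.38, 2.53 and 2.40 in flox at 1 month and at 3.19, 2.97, 2.83 and 3.29 at 2 months, where replicate 1 at 1 month reached into the 2-month range. The rise was 0.51 (SE 0.171, adjusted p = 0.043), and in cardioMRKO it was 0.18. Both calls lay near the threshold, and the Xirp1 call was kept in 17 of 28 settings and the Lmod2 call in 12 of 28. The Xirp1 call was lost without flox replicate 1 (0.42) or 4 (0.50) at 1 month and without flox replicate 1 (0.49) or 4 (0.53) at 2 months. The Lmod2 call was lost without flox replicate 2 (0.46), 3 (0.50) or 4 (0.46) at 1 month and without flox replicate 1 (0.47), 2 (0.55) or 4 (0.44) at 2 months. It was also lost, at the same difference, without cardioMRKO replicate 1 or 4 at 1 month or replicate 1 or 2 at 2 months, which enter only the estimate of the spread.

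**Figure D4:**
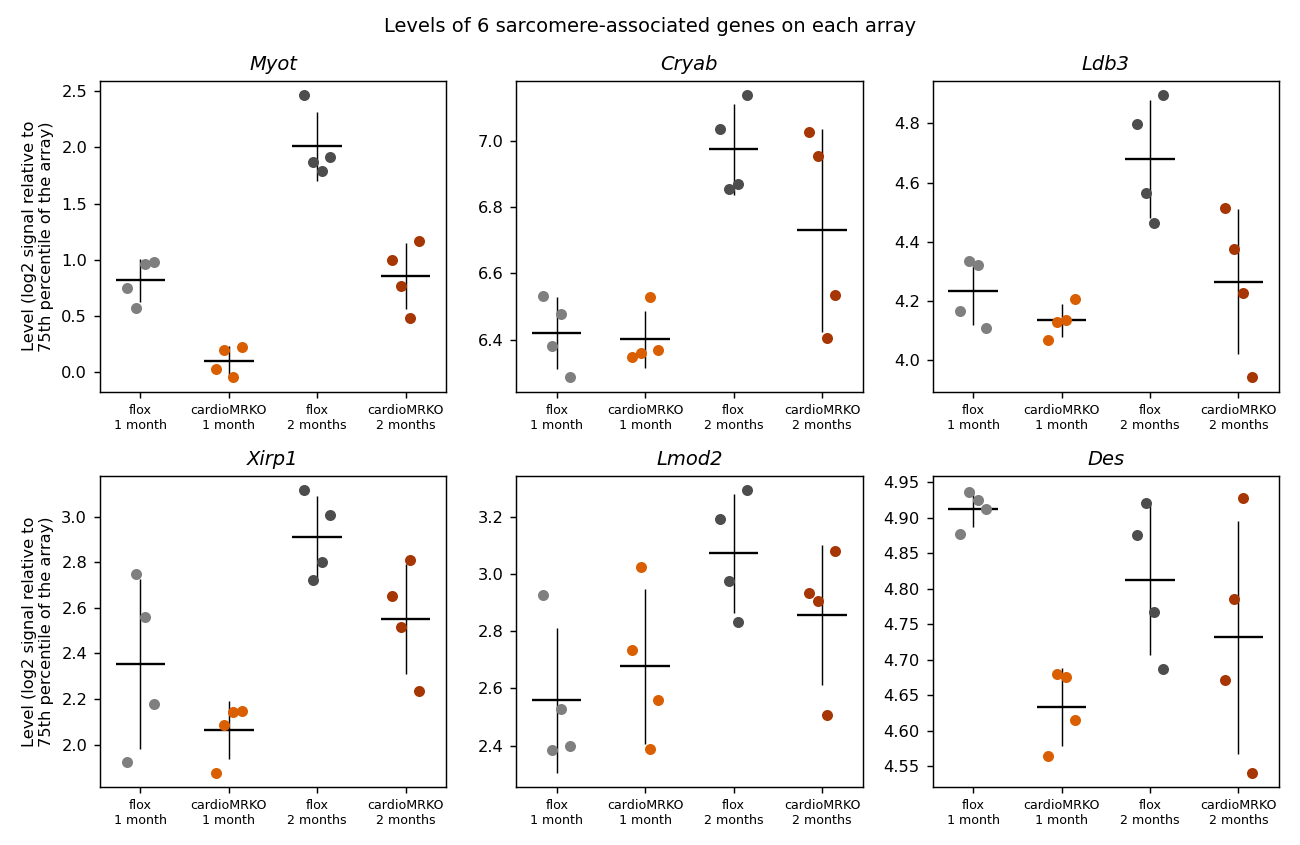
Level on each array (points) of 6 members in the 4 groups, as log2 signal relative to each array's 75th percentile, with the group mean (horizontal line) and SD (vertical line, n = 4). Each panel has its own y axis, which does not start at 0. Myot is lower in cardioMRKO at both ages and higher at 2 months in both genotypes, and Des separates the genotypes at 1 month only.

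On the lower side, 7 members had all flox arrays at 2 months below all at 1 month, beside 8.09% of all genes, and 3 had them above, beside 19.9%. The 4 with the smallest p did not pass. Fhl2 differed by −0.44 (adjusted p = 0.0613), Tnnt2 by −0.40 (adjusted p = 0.0647), Flnc by −0.36 (adjusted p = 0.0709) and Tnnc1 by −0.54 (adjusted p = 0.072). Fhl2 stood at 7.41, 7.59, 7.53 and 7.30 in flox at 2 months, below its 1-month values, and Tnnt2 went from 7.97, 8.10, 8.17 and 8.17 to 7.51, 7.77, 7.83 and 7.71. Fhl2 and Tnnt2 passed in a fit of the 8 flox arrays alone (adjusted p = 0.0225 and 0.0323), and Flnc passed with array weights (−0.46, adjusted p = 0.0135). Flnc passed also without flox replicate 1 at 1 month (−0.43, adjusted p = 0.0459). Of the 3 probes of Flnc, 2 lay below 0 with age in flox, and the range was −0.39 to 0.35.

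In cardioMRKO hearts, Ttn differed by 0.37 with age (adjusted p = 0.128), without overlap. It passed with weighted arrays (0.34, adjusted p = 0.0159) and without flox replicate 4 at 2 months (0.37, adjusted p = 0.0299), while the mean of its probes gave −0.05. Tcap differed by −0.33 (adjusted p = 0.186), passed with quantile normalization (−0.32, adjusted p = 0.033) and turned to 0.03 with spike-in scaling. In all, 4 members were higher without overlap, beside 9.15% of all genes, and Nebl was lower, beside 10.7%. The member median with age was −0.06 in flox, beside 0.07 for all genes, and 0.02 in cardioMRKO, beside 0.00. Spike-in scaling moved the median of all genes to 0.25 and 0.36 and the member medians to 0.12 and 0.38, with 10 and 0 of the 33 below 0 in place of 18 (41.6% of all genes) and 13 (49.9%).

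**Figure D5:**
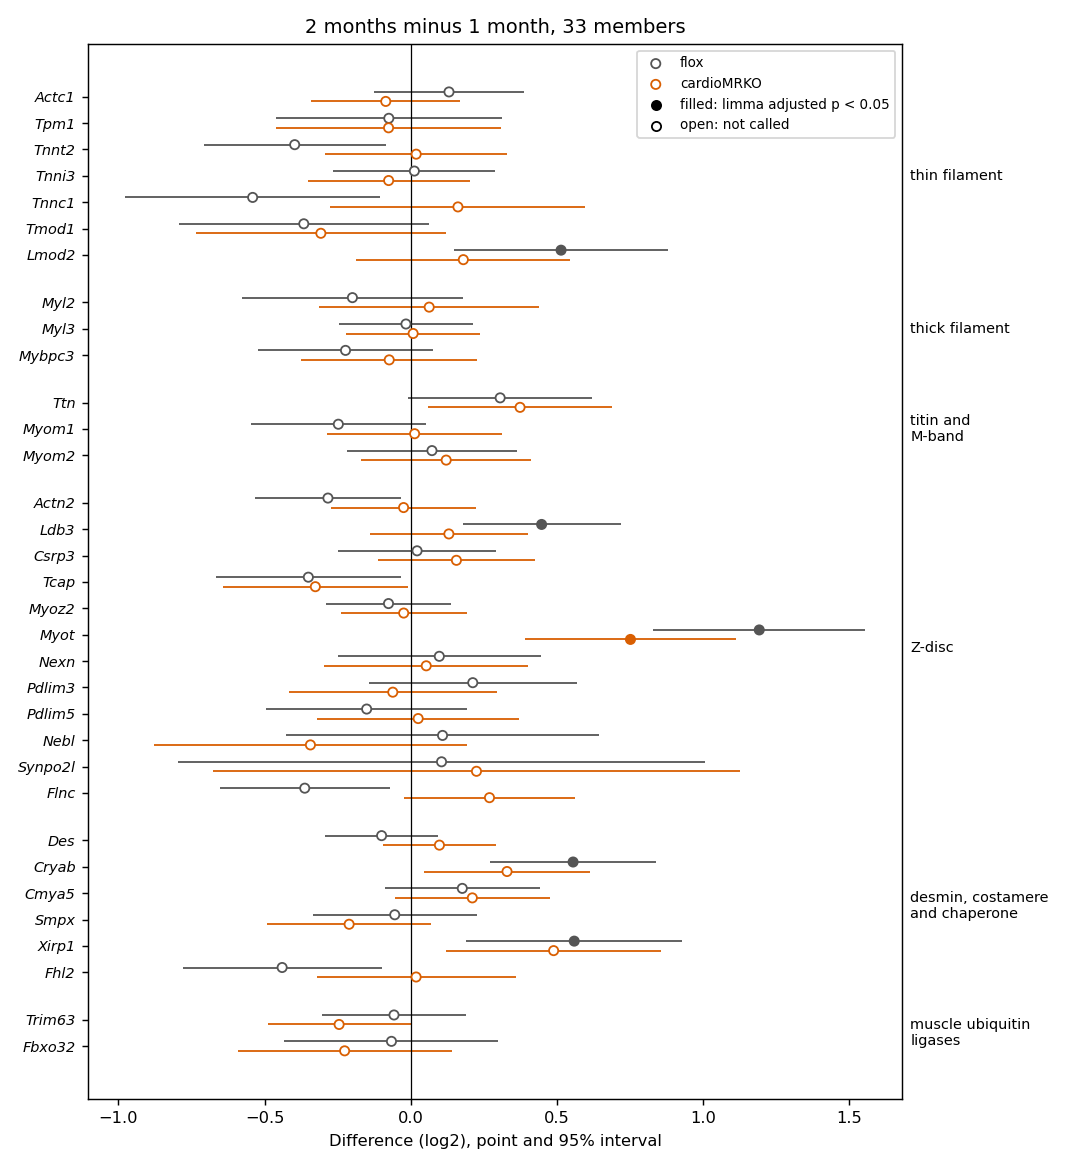
Difference between 2 months and 1 month of age (log2, x axis) for each of the 33 members, grouped by place in the sarcomere, in flox (grey) and cardioMRKO (orange). Lines are 95% intervals of the limma fit with 4 arrays per group, and filled points have an adjusted p under 0.05. In flox 5 points are filled, Lmod2, Ldb3, Myot, Cryab and Xirp1, and in cardioMRKO 1, Myot.

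Probes of a gene did not always move together. Of 11 members with several probes tested, 8 had all probes on the same side of 0 between genotypes at 1 month, 5 at 2 months, 2 with age in flox and 5 with age in cardioMRKO. Tnni3 gave −0.29 and 0.41 at 2 months from its 2 probes, and −0.20 and −0.63 at 1 month. Myot, Des, Lmod2 and Xirp1 have 1 probe each, so no second probe bears on them.

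Among 57 other sarcomere genes tested, of 61 listed, Myh7 and Mybpc2 were called between genotypes. The slow β-myosin heavy chain Myh7 was higher in cardioMRKO by 3.44 at 1 month (adjusted p = 2.17e-08) and 3.16 at 2 months (adjusted p = 6.77e-08), while the adult α-myosin Myh6 differed by −0.33 and −0.06. Mybpc2, the fast skeletal myosin-binding protein C, was higher by 1.01 at 2 months (SE 0.179, adjusted p = 0.00756) and 0.71 over both ages (adjusted p = 0.0147). None of the 57 was called lower between genotypes. Of all genes, 0.0499% were called higher and 0.0449% lower at 1 month, and 1.55% and 1.98% at 2 months. Over both ages the shares were 0.583% and 0.558%. With age 7 of the 57 rose in flox, beside 16.7% of all genes called higher, and 5 fell, beside 5.91% called lower. In cardioMRKO 8 rose, beside 5.32%, and 5 fell, beside 4.93%. Those that rose by the smallest p in flox were Tmod4, a skeletal tropomodulin, at 0.91 and Ankrd2, a stretch-responsive ankyrin repeat protein, at 0.98, followed by Trim54, a MuRF family ligase, at 0.69 and Xirp2 at 0.60. Those that fell in flox were led by Acta2, the smooth muscle actin, by 1.02 and Trim55, another MuRF family ligase, by 0.97. Trim55 read above background on only 2 of the 4 flox arrays at 2 months. The non-muscle tropomyosin Tpm4 fell by 0.58 and Ky, a Z-disc protein of skeletal muscle, by 0.77. In cardioMRKO Xirp2 rose by 0.67, Tmod4 by 0.67, skeletal actin Acta1 by 1.38 and Trim54 by 0.70, the last from 3 of the 4 arrays at 1 month because a spot was an outlier. Acta2 fell there by 1.03, Ky by 1.09, and the slow skeletal troponins Tnnt1 and Tnni1 by 0.52 and 0.87. Tmod4, Acta1 and others of these genes are also expressed in skeletal muscle, whose markers were high on 1 array of each 2-month group. The part of those arrays in these age differences and in the genotype difference of Mybpc2 was not tested.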

How the data were processed

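Per the labels' protocols, total RNA of whole hearts was labelled and hybridised to 1 array per mouse. The authors' deposited values are spot intensities on a linear scale, background-subtracted within the array per the file headers, which name Agilent Feature Extraction 12.0.0.7 where the submitters' processing notes name 9.5, and an array design on mm9.

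The intensity was taken as log2, spots marked as outliers were left out, spots of a probe were averaged, and the 75th percentile of its non-control probes was subtracted from each array. Of 41174 probes, the 27278 that read above background throughout 1 group or more were kept, and the brightest probe per gene gave 20056 genes. Symbols came from RefSeq accessions, for 28223 probes. These log2 values, computed from the deposited intensities, were fitted by group mean with lmFit and eBayes of limma (version 3.58.1, R version 4.3.3), leaving 12 residual degrees of freedom. Tests were two-sided. The script was tested on simulated data. Array weights, normexp (offset 50), quantile and spike-in scaling (7 spike-in probes), other probe rules and left-out arrays were tried.

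The members and gene lists were chosen with earlier results of these data known. Members given with values per array were those called in a comparison, up to 4 more by smallest p and the one with p nearest 1 in each genotype comparison. Values of Tnni3, Synpo2l, Nebl and other members given in passing serve to account for all 33.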

Additional observations from a re-analysis of the deposited data

Results flagged for a closer look

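Levels of the 33 members were examined for a single array far from the other 3 of its group, in 132 groups of 4 arrays. In 11 groups the gap to the nearest array, as a share of the group's range, was above Dixon's 95% critical value for 4 samples, which chance passes in about 1 of 20 groups. No explanation was weighed.

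In flox at 2 months replicate 4 stood apart for 3 members, with Tmod1 at 2.94, Myom1 at 4.61 and Nebl at −0.97, each the lowest, and replicate 1 was the lowest for Tnni3, at 8.16. Replicate 4 is also an array of low spike-in signal and of low signal in most titin probes. In flox at 1 month replicate 1 was the lowest for Myl2 at 8.12, Nexn at 5.19 and Synpo2l at −3.02.

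In cardioMRKO at 1 month replicate 1 was the lowest for Myl2, at 7.90, replicate 2 the highest for Myom1, at 5.20, and replicate 3 the highest for Cryab, at 6.53. In cardioMRKO at 2 months replicate 2 was the highest for Trim63, at 5.13. None of these groups was one of Myot, Des, Ldb3, Xirp1 or Lmod2.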

How the results depend on the processing

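Of 942 alternative values of the 34 named differences, 13 changed sign, all of differences that did not pass. Cryab at 1 month turned to 0.051 with normexp and 0.11 with quantile normalization, and ran from −0.063 to 0.019 without 1 array. Myl2 at 2 months ran from −0.11 to 0.14 without 1 array, below 0 without flox replicate 1 or 4 or cardioMRKO replicate 1 or 2. Tnnt2 over both ages ran from −0.050 to 0.073 without 1 array. Ttn with age in cardioMRKO turned to −0.047 with the mean of probes, and Tcap to 0.033 with spike-in scaling.

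Counts of members called moved as follows. The number of all genes called moved as well, over the ranges given in the next paragraph. Where no number of all genes stands beside a count, the count alone says nothing particular of the members. With array weights they were 2 at 1 month, 3 over both ages, 1 for the change between ages, 10 with age in flox and 7 in cardioMRKO. Of all 20056 genes, array weights called 187 at 1 month, 785 over both ages, 6166 with age in flox and 5179 in cardioMRKO. With spike-in scaling the members called were 0 at 2 months, 0 over both ages and 1 with age in flox, beside 178, 28 and 2743 of all genes. The fit of the 8 arrays at 2 months gave 0, beside 96 of all genes. Leaving out both arrays of low spike-in signal, the members called were 2 over both ages and 4 with age in cardioMRKO. With age in flox they were 2 without the 1-month arrays highest in airway markers (flox replicate 4 and cardioMRKO replicate 1) and 3 without a filter. With age in cardioMRKO they were 3 after quantile normalization, beside 1808 of all genes. Member medians were −0.0017, 0.062 and 0.013 at 1 month, 2 months and over both ages with quantile normalization, and with spike-in scaling 0.063 at 2 months, 0.22 for the change between ages and 0.12 and 0.38 with age. The cause was not tested.

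Leaving out 1 array gave counts of 0 to 0 at 1 month, 1 to 3 at 2 months, 1 to 1 over both ages, 0 to 0 for the change between ages, 2 to 8 with age in flox and 1 to 2 in cardioMRKO. Medians ran in that order from −0.19 to −0.12, −0.18 to −0.08, −0.17 to −0.09, −0.05 to 0.07, −0.10 to −0.0038 and −0.06 to 0.10. The number of all genes called is given over every alternative setting, not over left-out arrays alone. In that order it ran from 2 to 187 (19 in the fit reported), 96 to 1050 (707), 28 to 785 (229), 24 to 489 (150), 2743 to 6166 (4543) and 1077 to 5179 (2055).

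With the replicate number as a block the counts of members called were 0, 1, 1, 0, 7 and 1. Of all genes, that block called 1050 at 2 months and 489 for the change between ages, beside 707 and 150 in the fit reported. For the other comparisons its number of all genes lay within the ranges above, so those counts say nothing particular of the members. The number is the position on the slide. Same-numbered arrays correlated from −0.31 to 0.36 in their deviations, over 0.1 in 10 of 24 pairs. Arrays of different numbers were not correlated beside them, so these values cannot decide whether the number pairs the samples.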
